A study of Homo sapiens with 16 samples.

Results

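The HOX genes encode the homeodomain transcription factors that give cells their position along the body axis, and they lie in 4 clusters, HOXA, HOXB, HOXC and HOXD. The 38 HOX genes examined here were taken by symbol from a fixed list, with 10 in HOXA, 10 in HOXB, 9 in HOXC and 9 in HOXD, and all 38 were found in the annotation. Regions that lost or gained H3K27ac under inhibition of O-GlcNAc transferase (OGT) were collected in each cluster and within 500 kb of its ends, which gave 16 of the 7130 listed regions. The genes were listed by name, not by an H3K27ac value.

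H3K27ac, acetylation of histone H3 at lysine 27, marks active promoters and enhancers. ChIP-seq was performed in LX-2, a human line of hepatic stellate cells (HSCs), the cells that turn into collagen-producing myofibroblasts in injured liver. Control cells received the DMSO vehicle. Treated cells received OSMI-1, which inhibits OGT and is called OGTi below, at 50 µM for 24 h, and each arm had 4 H3K27ac libraries. All libraries came from this 1 cell line in culture, and the labels name no genetic change in either arm. The other 8 of the 16 samples, input DNA and column purified chromatin, entered no comparison here. The lists hold positions alone, so that neither the size of a change, nor its spread between replicates, nor the read depth can be given for any region, and no test between the arms could be run. Regions that did not change were not analysed here. The lists give no levels, so the cell type could not be checked from them as expression. Of 11 stellate and mesenchymal markers, 5 had a lost region within 2500 bp of the TSS (COL1A1, COL1A2, PDGFRB, TAGLN and THY1), beside 1.96% of all protein-coding genes, and none had a gained one there. In the gene, ACTA2 had 1 lost region, whereas COL3A1 and SPARC had 2 gained regions each and COL1A1 also had 1. No marker of hepatocytes (6), macrophages (5) or endothelial cells (5) had a listed region at the TSS, while CSF1R and PTPRC and, of the endothelial list, CDH5 and PECAM1 had lost regions in the gene body.

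Within a cluster, HOX genes are numbered by paralogue group, and low-numbered genes act towards the head (anterior) while high-numbered genes act towards the tail (posterior). Fibroblasts and related mesenchymal cells keep a HOX pattern that reflects the body site they came from. HOX domains are a classical setting of opposed Polycomb and Trithorax control, in which methylation and acetylation of the same lysine 27 exclude each other. HOTAIR, a long non-coding RNA transcribed antisense within HOXC, is known for its interaction with Polycomb repressive complex 2.

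H3K27ac loss inside the HOX clusters was seen in HOXC alone, in 2 regions. The 4 clusters span 0.515 Mb and held 3.88 listed regions per Mb, beside 2.35 per Mb over the full length of the autosomes and X. With so few regions, their absence from the other clusters is a description and no trait of HOXC. Both regions inside a cluster were lost, and both lay in HOXC (chr12:53938831-54056030, 117 kb, transcribed from the plus strand). HOXA (chr7:27100354-27200091, minus strand), HOXB (chr17:48528526-48728750, minus strand) and HOXD (chr2:176092721-176190907, plus strand) held no listed region, and no cluster held a gained one. The first HOXC region, chr12:53965174-53967760 (2587 bp), lay within HOTAIR, between HOXC12 and HOXC11, with 405 bp in exons and 2182 bp in introns of HOTAIR. It covered 3 annotated TSSs of shorter HOTAIR transcripts (53966407, 53966630 and 53967355), whereas the outermost HOTAIR TSS was 7.20 kb away and the nearest HOX TSS, that of HOXC11, 5.37 kb away. The second, chr12:54012733-54014954 (2222 bp), lay between HOXC8 and HOXC4. It overlapped the last 37 bp of HOXC8 and fell in an intron of HOXC6, whose gene model spans this interval, 1.98 kb upstream of the HOXC4 TSS and 0.943 kb upstream of an internal HOXC6 TSS. The gap between both regions was 45.0 kb and held HOXC11, HOXC10 and HOXC9 without a listed region.

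Another lost block preceded the cluster on its HOXC13 side. It consisted of 2 abutting regions, chr12:53844230-53845766 (1537 bp) and chr12:53845767-53846883 (1117 bp), in an intron of the long non-coding RNA gene ENSG00000286069, 91.9 kb before HOXC13. No protein-coding TSS was nearer to this block than that of HOXC13. The 4 lost regions from this block to the HOXC8 to HOXC4 interval had no gained region among them, and the nearest gained regions were 282 kb before and 310 kb after.

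**Figure D1:**
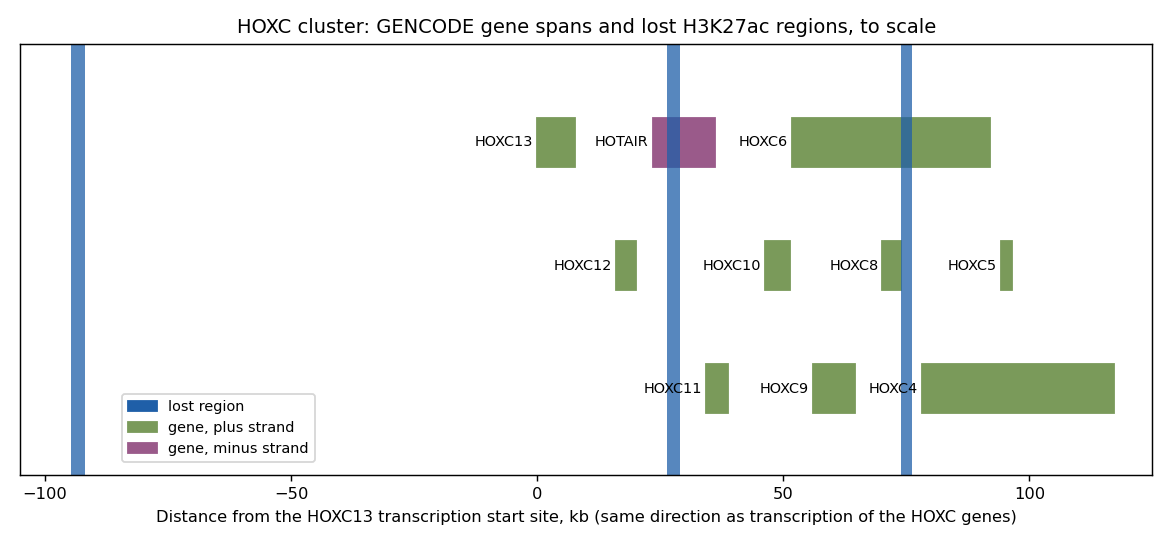
Gene spans of the HOXC genes and HOTAIR and the lost H3K27ac regions, with distance from the HOXC13 TSS in kb on the x axis. Blue bars mark the lost regions at their true width, and 1 bar lies 91.9 kb before HOXC13 while the other bars cross HOTAIR and the interval between HOXC8 and HOXC4.

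The sequences below show 200 bases of each HOXC site and of 1 gained flanking region described further on. They were chosen as the window with the most matches to the TEAD core (CATTCC, or GGAATG on the other strand), since TEAD factors are at the centre of the study, and windows with annotated UTR bases were passed over. Capitals mark the TEAD core, and all are hg38, plus strand, 5′ to 3′.
HOTAIR lost region, chr12:53966255-53966454: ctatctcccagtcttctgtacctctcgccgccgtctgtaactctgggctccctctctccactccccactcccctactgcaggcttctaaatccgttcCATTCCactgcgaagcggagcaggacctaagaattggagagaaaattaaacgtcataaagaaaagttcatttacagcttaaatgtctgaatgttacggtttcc
HOXC8 to HOXC4 lost region, chr12:54013592-54013791: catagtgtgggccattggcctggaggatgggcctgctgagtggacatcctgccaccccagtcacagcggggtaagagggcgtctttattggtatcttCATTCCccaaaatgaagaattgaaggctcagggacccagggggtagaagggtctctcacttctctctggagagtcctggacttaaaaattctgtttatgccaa
Lost block before HOXC13, chr12:53845045-53845244: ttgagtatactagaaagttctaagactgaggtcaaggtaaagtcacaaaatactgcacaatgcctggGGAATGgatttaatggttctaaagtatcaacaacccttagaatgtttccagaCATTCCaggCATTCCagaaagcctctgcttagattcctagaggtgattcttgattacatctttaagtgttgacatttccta
NFE2L1 gained region in the HOXB flank, chr17:48055643-48055842: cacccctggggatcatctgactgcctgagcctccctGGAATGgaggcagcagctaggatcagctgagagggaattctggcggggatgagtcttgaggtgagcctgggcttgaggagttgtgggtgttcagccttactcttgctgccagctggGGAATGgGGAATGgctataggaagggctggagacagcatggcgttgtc
The HOTAIR window held 1 match and the HOXC8 to HOXC4 window 1, whereas the block before HOXC13 held 3, of which a pair stood in the same orientation 3 bases apart. The gained NFE2L1 window likewise held 3, of which a pair stood in the same orientation 1 base apart. Over the whole regions, the TEAD core matched once in the HOTAIR region, 4 times in the HOXC8 to HOXC4 region and 5 times in the first of both abutting regions, and the gained NFE2L1 region also had 5 matches.

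Gene by gene, 1 of the 38 HOX genes had a lost region within 2500 bp of its TSS (2.63%), and none had a gained one. The gene was HOXC4. Among all 19970 protein-coding genes, 1.96% had a lost and 6.41% a gained region there, and the lost share of HOX genes was thus near that of all genes. HOXC4 belongs to the 15 central genes (paralogue groups 4 to 8), and none of the 7 anterior (groups 1 to 3) or 16 posterior (groups 9 to 13) genes had a listed region at the TSS. With the gene body included, 3 of 38 genes had a lost region, HOXC4, HOXC6 and HOXC8, and none a gained one, beside 6.94% (lost) and 11.3% (gained) of all protein-coding genes. These 3 are neighbours that share the second HOXC region, so they count as 1 event.

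The other 35 genes had no listed region in the gene or at the TSS. In HOXC these were HOXC5, HOXC9, HOXC10, HOXC11, HOXC12 and HOXC13. In HOXA they were HOXA2, HOXA3, HOXA4, HOXA5, HOXA6, HOXA7, HOXA9, HOXA10, HOXA11 and HOXA13. In HOXB they were HOXB1, HOXB2, HOXB3, HOXB4, HOXB5, HOXB6, HOXB7, HOXB8, HOXB9 and HOXB13. In HOXD they were HOXD1, HOXD3, HOXD4, HOXD8, HOXD9, HOXD10, HOXD11, HOXD12 and HOXD13. An absent region may mean unchanged H3K27ac, no H3K27ac in either arm or a change below the threshold, and the lists do not separate these.

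The distance from a HOX TSS to the nearest lost region set the clusters apart. In HOXC it ranged from 1.98 kb (HOXC4) to 26.3 kb (HOXC13), with a median of 17.3 kb over 9 genes. In HOXB it ranged from 243 kb (HOXB13) to 393 kb (HOXB4), in HOXA from 837 kb (HOXA13) to 934 kb (HOXA2), and in HOXD from 1119 kb (HOXD13) to 1215 kb (HOXD1). No HOXC distance overlapped those of another cluster. All 9 HOXC distances were to the 2 lost regions inside the cluster, so this restates where those 2 regions lay. The median over all protein-coding genes was 360 kb, close to the median of HOXB (361 kb), above that of HOXC and below those of HOXA (882 kb) and HOXD (1149 kb). To the nearest gained region the order differed, with HOXD nearest (80.7 to 177 kb), then HOXC (292 to 376 kb), while HOXA (447 to 545 kb) and HOXB (474 to 672 kb) overlapped. The median over all protein-coding genes was 235 kb for gained regions. Genes of 1 cluster share their neighbouring regions, so these distances are not independent.

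**Figure D2:**
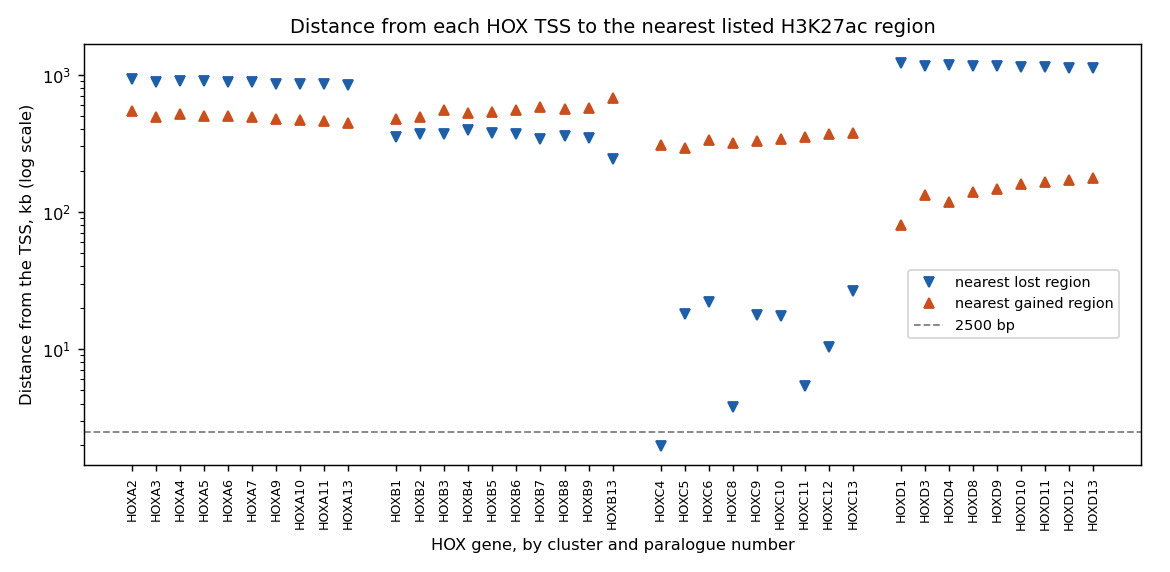
Distance in kb (log scale) from the TSS of each of the 38 HOX genes to the nearest lost (downward triangles) and gained (upward triangles) region, by cluster. The HOXC genes lie 1.98 to 26.3 kb from a lost region, and the dashed line at 2500 bp is passed by HOXC4 alone.

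In the clusters and flanks together, 8 regions were lost and 8 gained. The share of lost regions was thus 50.0% (exact 95% interval 24.7% to 75.3%, counting error only), beside 49.2% over all listed regions. With flanks of 250 kb, 5 lost regions and 1 gained region were counted, a lost share of 83.3%. HOXC and its flanks held 9 of the 16 regions (5 lost, 4 gained), HOXB 4 (3 lost, 1 gained), HOXD 2 (both gained) and HOXA 1 (gained). The 4.52 Mb examined held 3.54 regions per Mb, compared with 2.35 per Mb over the full length of the autosomes and X. The latter rate was not matched for gene content, so the comparison shows no enrichment at HOX clusters. The HOX density pools the 4 clusters, and 9 of its 16 regions, with the abutting pair among them, are those of HOXC and its flanks. By side, the anterior flanks held 2 lost and 6 gained regions and the posterior flanks 4 lost and 2 gained, and the intervals of both lost shares (3.19% to 65.1% and 22.3% to 95.7%) overlapped. HOXA had no listed region for 1243 kb on its anterior side, and HOXD none for 1119 kb on its posterior side.

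**Figure D3:**
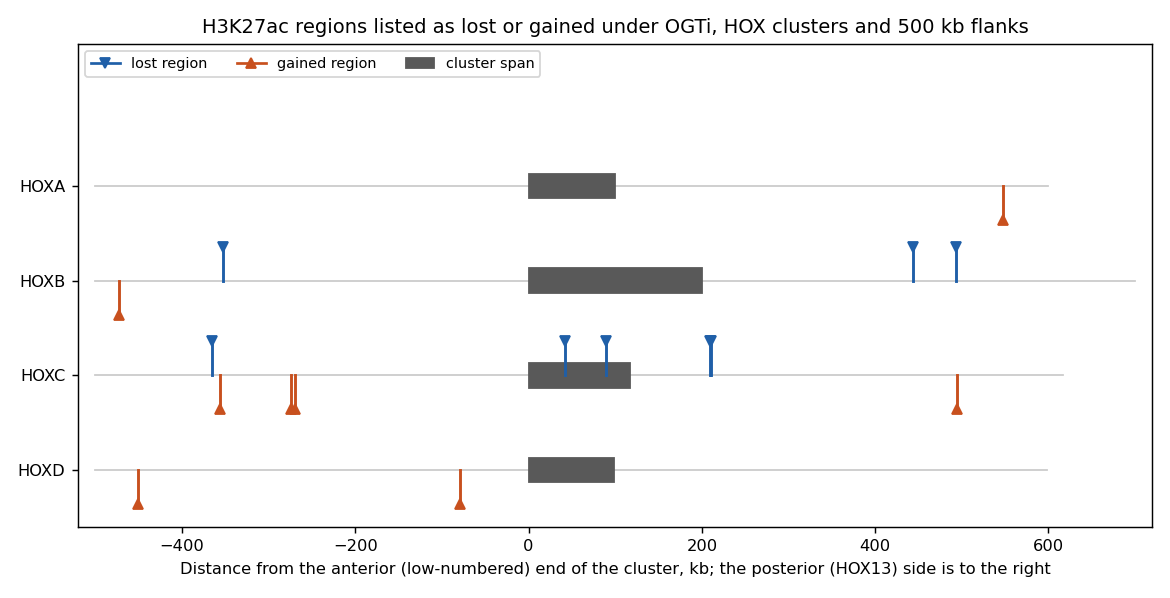
Map of the 4 clusters (grey bars) with 500 kb on each side, with distance from the anterior end of each cluster in kb on the x axis and the posterior side on the right. Downward marks are the 8 lost and upward marks the 8 gained regions (the abutting pair before HOXC13 falls on 1 mark), and the 2 marks inside a grey bar are both lost and in HOXC.

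The anterior flank of HOXC held the most regions of any side. A lost region, chr12:54419780-54422621 (2842 bp), lay 514 bp upstream of the TSS of ITGA5, which encodes the alpha chain of the fibronectin receptor. A gained region, chr12:54410765-54413195 (2431 bp), lay within ITGA5 itself, mostly in introns (2043 bp), 6.07 kb from the TSS and 6.58 kb from the lost region. By the outermost TSS, promoter-side loss and intragenic gain thus stood side by side at the same gene. The gained region also lay within 2500 bp of the TSS of an internal ITGA5 transcript, without covering it. The other gained regions of this flank, chr12:54324564-54325782 (1219 bp) and chr12:54329521-54330903 (1383 bp), lay in COPZ1, which encodes the zeta subunit of the coatomer of Golgi vesicles. The first of them covered the TSS of an internal COPZ1 transcript, although the outermost COPZ1 TSS was 23.4 kb away. On the posterior side, beyond the lost block, a gained region (chr12:53561348-53562460, 1113 bp) lay in an intron of ATF7, a cyclic AMP response element binding factor, 376 kb from HOXC13.

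The flanks of HOXB had more lost than gained regions. On the anterior side, a lost region of 2120 bp (chr17:48175040-48177159) lay in an intron of SKAP1, an adaptor of T cell receptor signalling, 351 kb from the cluster. Further out, a gained region of 2679 bp (chr17:48054043-48056721) lay in NFE2L1, which encodes a transcription factor of proteasome gene expression, with 982 bp in exons, and it covered an internal NFE2L1 TSS. On the posterior side both regions were lost. The first (chr17:48971407-48973190, 1784 bp) lay in no gene, 2.81 kb from the TSS of GIP, the gene of an incretin hormone, and 243 kb from HOXB13. The second (1601 bp) lay in an intron of IGF2BP1, which encodes an RNA-binding protein, 293 kb from HOXB13.

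Both regions beside HOXD were gained and on its anterior side. A region of 486 bp (chr2:176269409-176269894) lay over the first exon of MTX2, 14 bp from the outermost TSS and 78.5 kb from the cluster. MTX2 encodes metaxin 2, a protein of the mitochondrial outer membrane. The other (chr2:176640992-176642836, 1845 bp) lay in an intron of LINC01117, 450 kb from the cluster. Beside HOXA, the single region (chr7:27647391-27647982, 592 bp, gained) lay in HIBADH, an enzyme gene of valine catabolism, with 84 bp in coding sequence, 447 kb from HOXA13. It covered the TSS of an internal HIBADH transcript. Among the 46 other protein-coding genes with a TSS in the clusters or flanks, 1 had a lost region (ITGA5) and 1 a gained region (MTX2) within 2500 bp of the TSS, beside 1.96% and 6.41% of all protein-coding genes. Of the 16 regions, 4 lay within 2500 bp of the outermost TSS of any gene (25%), compared with 31.1% of all listed regions. Regions near an internal TSS alone, as at HIBADH, NFE2L1, COPZ1 and the gained ITGA5 region, count in neither share.

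The 4 HOX clusters arose by duplication, and the flanks carry duplicated neighbours too, so families with members beside several clusters were compared. This grouping was made after the regions were seen, and the counts were not corrected for gene length. They are to be read beside the 6.94% (lost) and 11.3% (gained) of all protein-coding genes with a region in the gene or at the TSS. Single genes cannot show an effect of lying beside a cluster, and none was tested. NFE2L1 beside HOXB had a gained region, whereas its relative NFE2 beside HOXC had none. The gained region nearest to NFE2, in COPZ1, was 23.5 kb from the NFE2 TSS. Of the same family outside the flanks, NFE2L2 had 2 gained regions and NFE2L3 none. ATF7 beside HOXC had 1 gained region, while outside the flanks CREB5 of the same family had 2 lost regions and ATF2 none. COPZ1 beside HOXC had 2 gained regions and COPZ2 beside HOXB none, with the NFE2L1 gained region 16.01 kb from the COPZ2 TSS. IGF2BP1 beside HOXB had 1 lost region, while its relatives far from any cluster had gained regions, 8 in IGF2BP2 and 2 in IGF2BP3. SKAP1 beside HOXB had a lost region and SKAP2 beside HOXA none. CALCOCO1 and CALCOCO2 beside HOXC and HOXB had no listed region, and TAX1BP1, of the same family, had a gained one at its TSS just outside the HOXA flank. HNRNPA1 beside HOXC and HNRNPA2B1 outside the flanks had none, while HNRNPA3, also outside the flanks, had a gained one at its TSS. CBX1 and CBX5, heterochromatin proteins beside HOXB and HOXC, had none, nor had their relative CBX3 or the sorting nexin genes SNX10 and SNX11. The homeobox genes EVX1 and EVX2 next to HOXA and HOXD had none either.

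The same duplicated neighbourhood holds a microRNA family, in MIR148B within COPZ1 and MIR152 within COPZ2. The second COPZ1 gained region lay 6.31 kb from MIR148B and the NFE2L1 gained region 16.8 kb from MIR152. Both are regions already named above and add no further event. The third member, MIR148A, was more than 500 kb from HOXA, with gained and lost regions at 92.9 and 102 kb. Their mature sequences (RefSeq, hg38) are shown because they share the seed, bases 2 to 8, in capitals.
miR-148b-3p: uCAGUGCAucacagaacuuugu
miR-152-3p: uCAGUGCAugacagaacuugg
miR-148a-3p: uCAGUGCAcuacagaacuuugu
The microRNAs within the clusters had no listed region at their genes. MIR196A2 and MIR615 in HOXC were 21.0 and 19.0 kb from the nearest lost region, whereas MIR196A1 (339 kb), MIR10A (391 kb), MIR196B (867 kb) and MIR10B (1176 kb) were far from one. Of the 24 listed non-coding genes of the HOX clusters, HOTAIR was the only one with a listed region in the gene, and none of the 24 had a region within 2500 bp of the outermost TSS (1.15% of all non-coding genes had a lost and 1.8% a gained one there). Other non-coding genes, not in this list, did. The HOTAIR region lay within 2500 bp of the TSSs of ENSG00000274817, ENSG00000275589, ENSG00000277129 and ENSG00000277994, and it overlapped the last by 97 bp. These genes are annotated as miscellaneous RNA and their TSSs lie within HOTAIR, so they are no separate events. The HOXC8 to HOXC4 region lay within 2500 bp of the TSS of the long non-coding RNA gene ENSG00000273046.

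The lost regions inside HOXC had higher CpG ratios over their whole length than the lost regions of the flanks, while their GC content was within the range of the latter. The CpG observed/expected ratio was 0.434 in the HOTAIR region and 0.336 in the HOXC8 to HOXC4 region, while the 6 lost regions of the flanks ranged from 0.103 to 0.195. The median of all lost regions was 0.202. GC content was 52.8% in both HOXC regions, 42.3% to 54.7% in the lost regions of the flanks and 46.8% in the median of all lost regions. In the central 1000 bp the ratio was 0.678 for the HOTAIR region and 0.187 for the HOXC8 to HOXC4 region, and the latter was within the range of the flanking lost regions (0.0828 to 0.202). Of the gained regions, those at MTX2 (0.770) and COPZ1 (0.552 in the first) had ratios above both HOXC regions, and the other 6 ranged from 0.140 to 0.285. HOX promoters themselves, 500 bp on each side of the TSS, had a median ratio of 0.688 over 38 genes, as did all protein-coding promoters (0.688). The median was 0.709 for promoters with a lost region and 0.786 for those with a gained region.

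**Figure D4:**
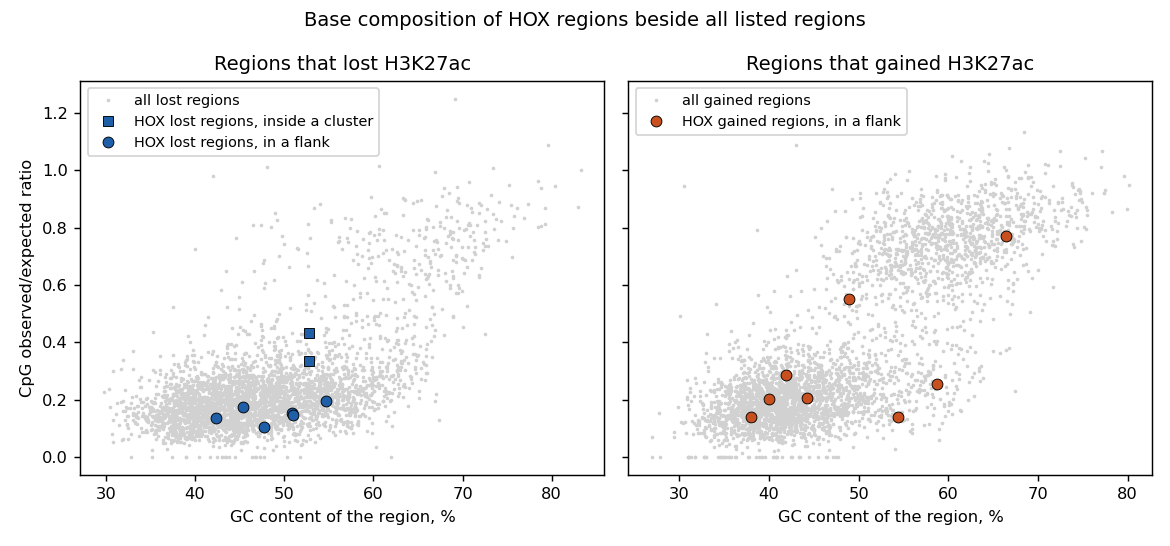
GC content in % and CpG observed/expected ratio of the HOX regions (large symbols) over all listed regions (grey dots), lost on the left and gained on the right. The lost regions inside HOXC (squares) have ratios of 0.434 and 0.336, above the flanking lost regions (circles, 0.103 to 0.195).

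The width of the HOX regions was within the range of the lists. Lost HOX regions had a median of 1952 bp (1117 to 2842 bp) and gained ones of 1301 bp (486 to 2679 bp). Over all listed regions the medians were 1905 bp for lost and 1697 bp for gained regions.

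Motifs were then counted on both strands in the 1000 bp around each region's centre, a window that reaches outside the gained regions at HIBADH (592 bp) and MTX2 (486 bp). The TEAD core matched in 7 of the 8 HOX regions that lost H3K27ac and in 6 of the 8 that gained it, beside 60.7% of all lost and 45.8% of all gained regions. The AP-1 motif (TGANTCA) matched in 4 lost and 5 gained HOX regions, beside 44.7% of all lost and 46.8% of all gained regions. The AP-1 match at HIBADH lay outside the region, so that 4 gained regions held the motif themselves. The homeodomain core (TAATTA) was present in 2 of 16 HOX regions, 1 lost and 1 gained, beside 23.5% of all regions, and the PBX-HOX motif (TGATNNAT) in 2 of 16, both gained, beside 35.5%. Over the whole regions, the homeodomain core was present in 4 of 16 (2 lost, 2 gained), beside 34.2% of all regions. The PBX-HOX motif was then present in 6 of 16, beside 48.8%, and 4 of these were lost and 2 gained, so its direction depended on the window. Neither HOXC region inside the cluster held either motif over its whole length. The MEIS motif (TGACAG) was present in 8 of 16 (48.1% of all), with the match at MTX2 outside the region, the CTCF core (GGNGGCAG) in 9 of 16 (33.2%) and the AGGTCA element of nuclear receptors in 9 of 16 (49.97%). With 16 regions these counts are a description, and a letter match is not a bound site.

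**Figure D5:**
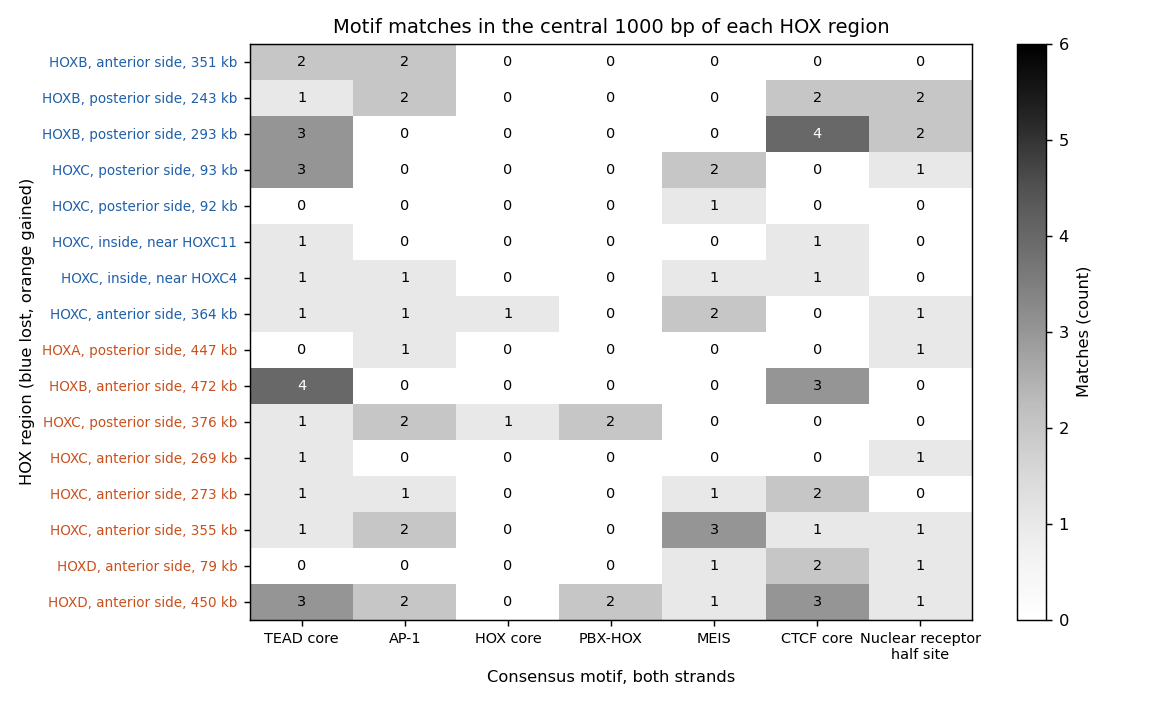
Number of matches to 7 consensus motifs in the 1000 bp around the centre of each of the 16 HOX regions, named by cluster, side and distance from the cluster, with lost regions in blue and gained regions in orange. The TEAD core column has a match in 13 regions, and the HOX core and PBX-HOX columns in 2 each.

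Regulators of HOX genes were counted with the same 2500 bp window. Of 19 Polycomb genes, 4 had a gained region at the TSS (21.1%, beside 6.41% of all protein-coding genes) and none a lost one. These were EZH1, the alternative H3K27 methyltransferase, RBBP4, a histone-binding subunit of Polycomb repressive complex 2, and PCGF2 and PHC2, subunits of Polycomb repressive complex 1. PHC2 carried 4 gained regions in the gene. Of 12 genes of the MLL complexes, H3K79 methylation and H3K27 demethylation, DOT1L had a gained region at the TSS, and KDM6B, an H3K27 demethylase, had 1 in the gene. Of 9 cofactors of HOX proteins, PBX3 had a lost region 1.01 kb from its TSS (1.96% of all protein-coding genes had one within 2500 bp), and PKNOX2 had 3 lost regions in the gene. Of 14 genes of retinoic acid synthesis and response, none had a region at the TSS, while RARA, a retinoic acid receptor, carried 4 lost regions in the gene and ALDH1A2, which makes retinoic acid, 2 lost and 1 gained, and RXRA 1 gained. None of 13 homeobox genes linked to HOX clusters or of the ParaHox group had any. Of all protein-coding genes, 6.94% had a lost and 11.3% a gained region in the gene or at the TSS, the share beside which the regions within genes are to be read. These lists are short and were chosen with earlier results of these data known, and no test was run on them. Promoters with a gained region had a higher median CpG ratio (0.786) than all protein-coding promoters (0.688), and the shares were not matched for this.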

How the data were processed

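H3K27ac ChIP-seq was performed by the authors in LX-2 cells. According to the methods of the study, reads were aligned to hg38 with Chromap, peaks were called per library against input with MACS2 (2.1.1.20160309 per the labels), and peaks of all 8 libraries were binned and tested with MAnorm2. Values deposited by the authors are positions in bp, in a list of lost and a list of gained regions, at an adjusted p of 0.15 in the names of the lists, whereas the methods text names a stricter threshold. Depth is unknown. Starts were converted to count from 1. Genes came from GENCODE release 44 on hg38 (62700 genes), and the TSS was the outermost 5′ end. A region belonged to a cluster or flank when any base lay in it, and to a TSS within 2500 bp. The HOX genes, gene lists and motifs were chosen with earlier results of these data known. Named were all HOX genes, the gene or nearest protein-coding gene of each flanking region, and the genes of each list with a region at the TSS, at most 6 per list. Genes of the lists with regions in the gene body only, the duplicated families and the paired TEAD cores were chosen after their values were seen. The sequence of 1 flanking region is not reported here. The exact interval is Clopper-Pearson (scipy). No test between arms was possible. Alternatives were other flanks, TSS windows, joining of regions and motif windows. The functions were checked on constructed sequences and intervals.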

Additional observations from a re-analysis of the deposited data

How the results depend on the processing

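Of 82 values recomputed under an alternative, 61 stayed within 1.5 times the value given above (for the share of lost regions, within its interval) and 21 did not. The counts inside the clusters, 2 lost and 0 gained, were the same by region centre and with abutting regions joined. The flanks mattered most. With 250 kb, lost regions numbered 5 and gained regions 1, the lost share rose to 83.3%, HOXB kept 1 lost region, HOXD 1 gained region, and HOXA, HOXB and HOXC 0 gained regions. With 1000 kb, 14 lost and 13 gained regions were counted, of which HOXA held 2 lost and 3 gained and HOXC 9 lost. Without the HOXC cluster, an alternative chosen after seeing the data, 3 lost and 4 gained regions remained in the count. HOX genes with a lost region at the TSS numbered 0 with a window of 1000 bp, 2 with 5000 bp (HOXC4 and HOXC8), 2 with the TSSs of all transcripts (HOXC4 and HOXC6) and, as an alternative added after seeing the data, 3 with the gene body. The count of genes with a gained region was 0 under these 4 alternatives. Over the whole region, the HOX core was present in 4 HOX regions (34.2% of all regions) and the PBX-HOX motif in 6 (48.8%). No paired analysis was possible because positions, without any replicate's values, are all that the lists contain. A replicate could therefore not be left out, nor could another threshold be set. Read depth, which limits which regions could be listed at all, is unknown.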

Other observations

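The pair of TEAD cores in the block before HOXC13 was looked for in all listed regions after it had been seen. The sequence searched was CATTCCNNNCATTCC, on both strands. It was present in 21 of 3507 lost regions (0.599%) and in 0 of 3623 gained regions. Of the 21, 2 were HOX flank regions, the block before HOXC13 among them. With the other 10 spacers from 0 to 10 bases, pairs in the same orientation were present in 4 to 11 lost and 0 to 4 gained regions. The spacer of 1 base, seen in the gained NFE2L1 region, was present in 11 lost and 4 gained regions. No test was run on these counts, and lost regions cover 6335 kb compared with 5943 kb for gained regions.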
